A study of Homo sapiens with 6 samples.

Results

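The 10 genes described here are imprinted genes, chosen by name: DLK1, MEG3, IGF2, H19, PEG3, PEG10, CDKN1C, NDN, MAGEL2 and PHLDA2. Each was found as 1 row among the 60709 genes with values in the deposited count table. The libraries are 3 control cultures of SH-SY5Y, an established human neuroblastoma line with features of immature sympathetic neurons. Wells at 80% confluence, holding 2 mL of DMEM/F12 with 10% serum and antibiotics, received 10 uL of DMSO and were lysed after 5 h. The labels also describe 3 wells given a fumarate linked to an Nrf2 peptide in water plus DMSO. Those carry the sample numbers 13, 14 and 15, which head no column of the table, so the peptide-treated wells were not analysed here and no effect of treatment is given. The columns headed 4, 5 and 6 match the numbers of control replicates 1, 2 and 3 and are named so throughout. If the headings were numbered independently of the labels, these libraries could be others of the study. The labels do not say whether the 3 wells are separate cultures beyond listing them as separate samples, so the spread between them may be technical.

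Imprinted genes are expressed mainly from the copy inherited from 1 parent, under the control of DNA methylation marks set in the germ line. They lie in clusters, in which a paternally expressed growth-promoting gene often neighbours a maternally expressed non-coding RNA or growth-restraining gene. DLK1 is a transmembrane relative of the Notch ligands known from chromaffin and sympathoadrenal cells, and IGF2 is a fetal growth factor. Gene counts do not separate the parental copies. Where a gene is described as paternally or maternally expressed below, that is textbook background and not a measurement.

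Values are CPM, counts per 1000000 of the scaled library total. Levels of different genes are compared as CPM per kb. This is CPM divided by the length of all annotated exons of the gene in GENCODE release 29 (GRCh38), counted per 1000 bases. Where genes are listed side by side in plain CPM, their order per kb may differ. A gene was taken as detected when it had at least 10 counts in every library. Totals were 8887854 to 11397407 counts per library, and a count of 0 allows up to 3 counts, or 0.263 to 0.339 CPM. The line was checked against its defining markers. Of 9 noradrenergic neuroblastoma genes, 8 were detected, among them HAND2 at 914 ± 44.3 CPM (SD, n = 3), DBH at 799 ± 90.2 CPM and GATA2 at 436 ± 21.8 CPM, while TH was listed at 0 in all 3 libraries. Fibroblast markers summed to 363 to 408 CPM, most of it COL3A1, and 5 of 6 were detected. Epithelial markers summed to 2.03 to 2.63 CPM with CDH1 at 0, and leukocyte markers to 1.58 to 2.43 CPM with CD3E at 0.

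For members that were not detected, the sequence before the RefSeq start is shown where one was available, since these are promoters from which little or no RNA was counted. Of the 10 genes, 4 matched the RefSeq promoter table (GRCh38.p14): MEG3, H19, NDN and MAGEL2. DLK1, IGF2, PEG3, PEG10, CDKN1C and PHLDA2 are named only. Each sequence is the 250 bases before the start, 5′ to 3′ on the gene's strand, with every CpG in capitals, the dinucleotide at which imprinted promoters can be methylated. MEG3 lies on the plus strand (chr14:100825858-100826107), and the other 3 lie on the minus strand (H19 chr11:2001267-2001516, NDN chr15:23687306-23687555, MAGEL2 chr15:23647868-23648117).
MEG3: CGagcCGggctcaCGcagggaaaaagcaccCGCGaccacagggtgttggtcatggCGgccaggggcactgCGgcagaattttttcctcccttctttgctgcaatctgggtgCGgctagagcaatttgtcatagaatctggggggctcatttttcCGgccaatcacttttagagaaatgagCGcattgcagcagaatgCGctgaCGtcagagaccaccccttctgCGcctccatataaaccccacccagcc
H19: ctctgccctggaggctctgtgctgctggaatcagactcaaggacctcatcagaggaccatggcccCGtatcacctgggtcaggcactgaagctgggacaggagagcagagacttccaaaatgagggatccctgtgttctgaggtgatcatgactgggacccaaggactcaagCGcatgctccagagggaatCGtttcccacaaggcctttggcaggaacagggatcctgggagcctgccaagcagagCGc
NDN: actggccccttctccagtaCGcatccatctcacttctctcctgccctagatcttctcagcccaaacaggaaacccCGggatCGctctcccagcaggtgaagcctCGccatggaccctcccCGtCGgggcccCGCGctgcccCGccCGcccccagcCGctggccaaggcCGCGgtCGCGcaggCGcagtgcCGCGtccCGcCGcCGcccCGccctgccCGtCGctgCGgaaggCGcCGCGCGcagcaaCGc
MAGEL2: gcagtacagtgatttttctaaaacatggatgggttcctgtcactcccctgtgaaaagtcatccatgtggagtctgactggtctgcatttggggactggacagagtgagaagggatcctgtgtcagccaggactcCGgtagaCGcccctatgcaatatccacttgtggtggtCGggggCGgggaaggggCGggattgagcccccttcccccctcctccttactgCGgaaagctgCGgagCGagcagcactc
The window of NDN holds 30 CpGs, more than 87.6% of 35116 promoter windows of the same length. MEG3 holds 13, MAGEL2 8 and H19 4, against a median of 11 over all windows. Motifs were searched on both strands, and overlapping matches were counted. GGGCGG, the core of a GC box, was found 4 times before NDN and 2 times before MAGEL2, and in 42.6% of all windows at least once. TATAAA was found once before MEG3 and in 10.7% of all windows. TGACGTCA, a cyclic AMP response element, was found once before MEG3 and in 1.65% of all windows. The table gives 3 starts for MEG3, of which the first listed is shown, and it lies inside the longer gene that GENCODE 29 gives. The windows of H19 and NDN also lie partly inside their GENCODE 29 genes, whose upper ends are at 2001470 and 23687330. Methylation was not measured, and a match shows only that these letters are present.

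PEG10 and DLK1 stood far above the other 8. Together they held 93.1 to 93.5% of the counts of the 10 genes. The 10 genes held 0.106% of all counts in replicate 1 (95% Wilson interval 0.104 to 0.108%), 0.102% in replicate 2 (0.1002 to 0.104%) and 0.0937% in replicate 3 (0.0917 to 0.0957%). Intervals cover counting error within a library only. No molecular identifiers are stated, so reads may include copies of 1 molecule, and the intervals may be too narrow. PEG10, DLK1, PEG3, CDKN1C and IGF2 were detected, which is 5 of 10, against 22.9% of all 60709 genes, a table that also lists many non-coding genes. Among genes that are paternally expressed by textbook, 4 of 6 members were detected, and among the maternally expressed 1 of 4, CDKN1C. Among other genes of the same clusters that were assigned a parental copy, the counts were 6 of 10 and 2 of 4. The 6 include KCNQ1OT1, which reached the minimum over 91667 exon bases at only 0.0415 CPM per kb. IGF2-AS, INS, MIMT1, USP29, PPP1R9A, UBE3A and ATP10A were assigned none and are not counted. Of these, PPP1R9A and UBE3A were detected. The counts by parental copy depend on which genes were assigned a copy, and with other assignments their direction could differ.

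Per kb, the order was PEG10 (82.0 ± 3.95 CPM per kb, SD, n = 3), DLK1 (73.3 ± 13.0), PEG3 (4.83 ± 0.416), CDKN1C (2.79 ± 0.0719), IGF2 (1.39 ± 0.351), PHLDA2 (0.703 ± 0.319), NDN (0.640 ± 0.191), H19 (0.385 ± 0.190), MAGEL2 (0.00872) and MEG3 (0.00251). The 3 values of PEG10 overlapped those of DLK1, so these neighbours did not differ beyond their spread. DLK1 exceeded PEG3 by 15.2-fold, with no overlap. No overlap was found either between PEG3 and CDKN1C, between CDKN1C and IGF2, or between IGF2 and PHLDA2. PHLDA2, NDN and H19 overlapped as neighbours, and so did MAGEL2 and MEG3. PEG10 was higher per kb than 97.5% of 13848 detected nuclear genes with a length, DLK1 than 97.1%, PEG3 than 43.3%, CDKN1C than 29.9% and IGF2 than 17.7%. IGF2 shares 75.0% of its exon bases with other gene entries. Its level and its place in this order may therefore be understated, also against CDKN1C and PEG3.

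**Figure D1:**
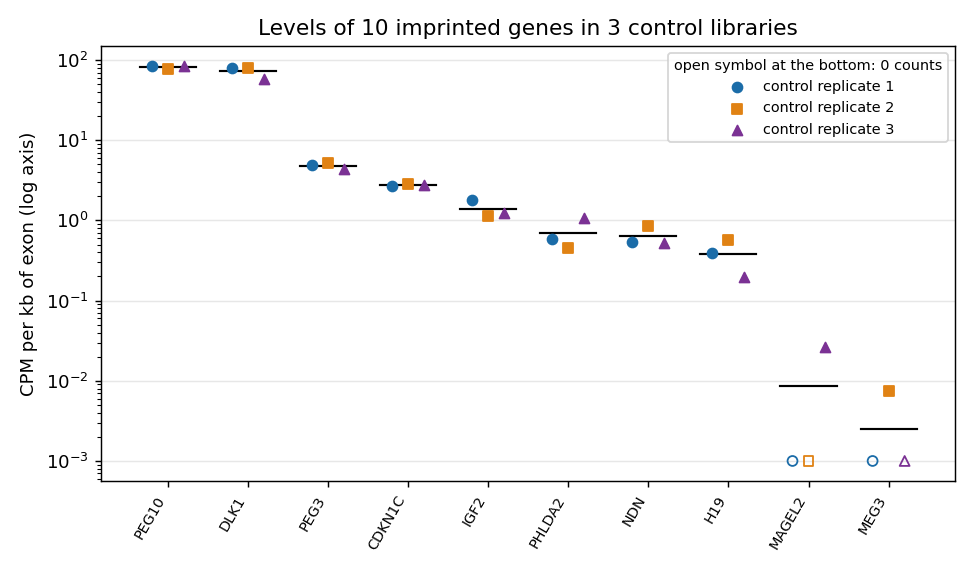
The y axis is CPM per kb of exon on a log scale and the x axis the 10 genes in order of their mean. Symbols are the 3 control libraries, bars their mean, and open symbols at the bottom stand for 0 counts. PEG10 and DLK1 lie between 58.3 and 85.2 CPM per kb, and all other values are at or below 5.20.

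At 14q32, DLK1 and RTL1, protein-coding genes read from the paternal chromosome, were abundant, while the paternally expressed DIO3 and the maternally expressed non-coding RNAs MEG3, MEG8 and MEG9 had at most 6 counts in a library. DLK1 (ENSG00000185559.16, chr14:100725705-100738224, plus strand) had 4582, 4907 and 2742 counts in replicates 1, 2 and 3. These are 428, 429 and 310 CPM, a mean of 389 ± 68.9 CPM (SD, n = 3), with replicate 3 below the other libraries. In a bulk library, fewer cells expressing a gene and less RNA per cell cannot be told apart. MEG3 (ENSG00000214548.18, chr14:100779410-100861031, plus strand), the maternally expressed long non-coding RNA of the cluster, had 0, 2 and 0 counts, which is 0.175 CPM in replicate 2. Over the 3 libraries DLK1 had 12231 counts and MEG3 2. Per kb the ratio of DLK1 to MEG3 was 26737, with a 95% exact interval of 7399.96 to 220800 for counting error alone. It also depends on the length used: its log2 was 14.7 with all exons and 14.0 with the longest transcript.

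RTL1 (ENSG00000254656.3, chr14:100879753-100903722, minus strand), a retrotransposon-derived gene between DLK1 and DIO3, had 3190, 3258 and 2095 counts. Its level was 273 ± 32.5 CPM, with 298, 285 and 237 CPM, so replicate 3 was again the lowest. Per kb, DLK1 exceeded RTL1 by 0.55, 0.61 and 0.41 on the log2 scale in the 3 libraries (0.52 ± 0.10). MEG8, a maternally expressed RNA, had 5, 6 and 2 counts, and MEG9 had 2, 0 and 0. DIO3, the paternally expressed deiodinase at the far end, had 3, 2 and 6 counts. Of the 3 paternally expressed genes of the cluster, DLK1 and RTL1 were abundant and DIO3 was not detected.

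From DLK1 to DIO3 the count table has 124 rows that GENCODE 29 places in the interval. Of these, 114 had 0 counts in every library and 3 were detected: DLK1, RTL1 and the minus-strand non-coding gene ENSG00000230805.8 with 20, 26 and 15 counts. The 113 plus-strand rows other than DLK1 and DIO3 hold MEG3, MEG8, MEG9 and the small RNAs of the cluster. They summed to 7, 11 and 2 counts in replicates 1, 2 and 3, and no row had more than 6 counts in a library. All 54 miRNA rows had 0 counts, and 46 of 47 snoRNA rows did. Libraries for messenger RNA are not made to hold mature small RNAs, so the rows of MEG3, MEG8 and MEG9 bear on the cluster more than those of the miRNAs do.

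The minus-strand RTL1 gene faces miRNAs that are made from the plus strand of the maternal copy. All 5 hairpins lie in its exon, opposite in strand, and together cover 8.89% of the exon bases. Their mature sequences are shown because each is the exact complement of a stretch of the RTL1 transcript, with the seed (bases 2 to 8) in capitals, from RefSeq (GRCh38.p14). All 5 hairpin rows had 0 counts in every library, as did MIR770 in an exon of MEG3.
miR-431-5p: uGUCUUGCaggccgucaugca
miR-433-3p: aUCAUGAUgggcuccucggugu
miR-127-3p: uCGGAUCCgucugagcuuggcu
miR-432-5p: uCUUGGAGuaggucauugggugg
miR-136-5p: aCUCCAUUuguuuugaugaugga
The complements lie at bases 4105 to 4125 (miR-431-5p), 3181 to 3202 (miR-433-3p), 2095 to 2116 (miR-127-3p), 633 to 655 (miR-432-5p) and 413 to 435 (miR-136-5p) of the RTL1 transcript of 5398 bases. All 10 mature sequences of these hairpins had such a match, and no seed was shared among them. Whether the counting used strand is not given in the sources used here. Reads of RTL1 and of a transcript from the other strand could then not be told apart by the count alone, while the plus-strand rows beside RTL1 had at most 6 counts.

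**Figure D2:**
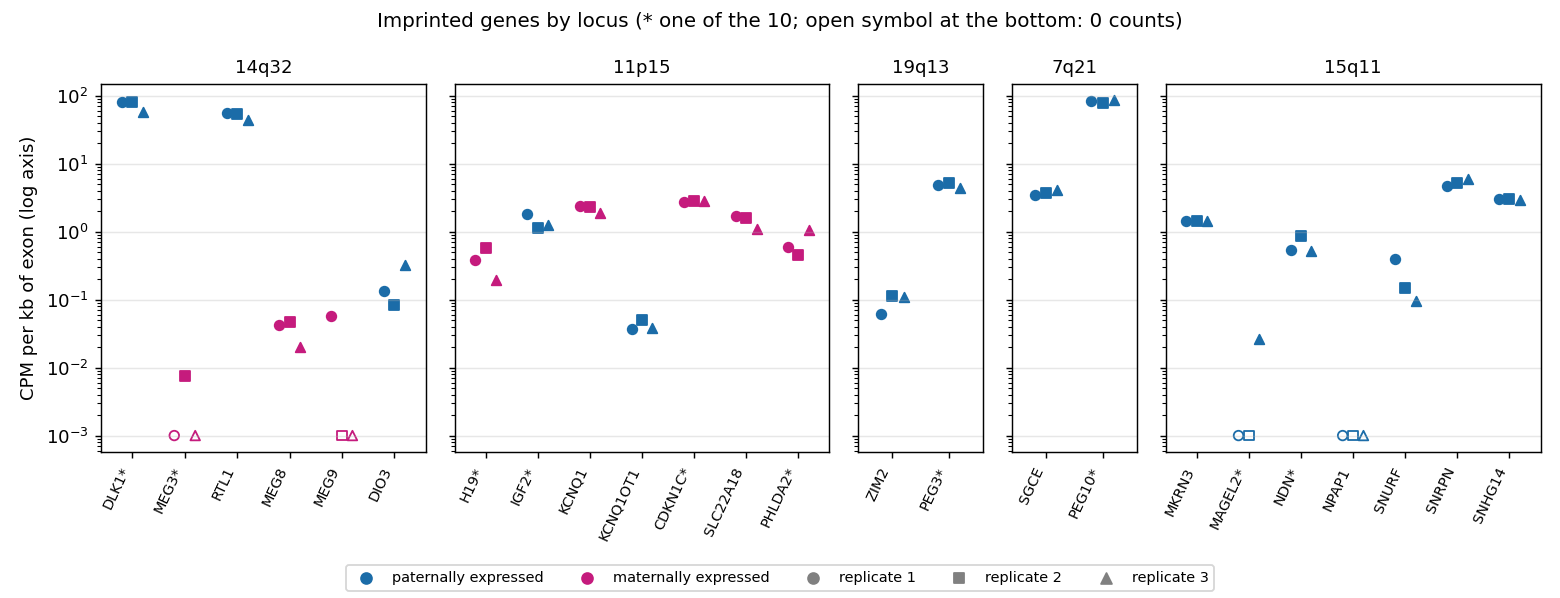
The y axis is CPM per kb of exon on a log scale, and each panel is 1 imprinted cluster. Genes are in chromosomal order, except that SNURF is drawn before SNRPN, which starts first. Blue marks genes that are paternally and magenta genes that are maternally expressed by textbook, symbols are the 3 libraries, and open symbols at the bottom stand for 0 counts. At 14q32, DLK1 and RTL1 lie above 43 CPM per kb while MEG3, MEG8 and MEG9 lie below 0.1.

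At 11p15 all 4 members were low, and none came near the level of DLK1. IGF2 (ENSG00000167244.21, chr11:2129112-2149603, minus strand) had 134, 91 and 77 counts. Its CPM were 12.5, 7.96 and 8.70, a mean of 9.73 ± 2.45 (SD, n = 3), with replicate 1 above the other libraries. H19 (ENSG00000130600.19, chr11:1995176-2001470, minus strand), the maternally expressed non-coding RNA of the same imprinting domain, had 12, 19 and 5 counts, or 1.12, 1.66 and 0.565 CPM. Counting error alone is 22.9 to 44.7% per library for H19. The log2 ratio of IGF2 to H19 per kb was 2.21, 0.99 and 2.68, a mean of 1.96 ± 0.87. IGF2 was thus higher per kb in each of the 3 libraries, by a factor that was not well determined.

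The IGF2 value depends on how shared reads were counted. In GENCODE 29, 73.7% of the exon bases of IGF2 also belong to a second gene entry of the same symbol, ENSG00000284779.2, which the table lists with 0 counts in every library. INS-IGF2, the readthrough gene to insulin, shares 20.9% and had 0 counts in every library. IGF2-AS on the opposite strand shares 4.77% and had 12, 19 and 8 counts. Over all entries and both strands, 75.0% of its exon bases are shared. If reads that fit more than 1 gene were left out, the IGF2 counts come from the unshared bases only, and dividing by the full exon length understates its level per kb. The treatment of such reads is not given in the sources used here. Since the second entry and INS-IGF2 had 0 counts, no read counted for IGF2 was also counted for them. INS itself had 0 counts in every library. H19 shares 7.35% of its exon bases with other entries, among them the miRNA gene MIR675, which had 0 counts. Its mature products from RefSeq show what this RNA can give rise to.
miR-675-5p: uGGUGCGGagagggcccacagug
miR-675-3p: cUGUAUGCccucaccgcuca

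CDKN1C and PHLDA2 belong to the second imprinting domain of 11p15, and both are maternally expressed growth restrainers. CDKN1C (ENSG00000129757.14, chr11:2883213-2885773, minus strand), the p57 inhibitor of cyclin-dependent kinases, had 72, 81 and 61 counts. Its CPM were 6.73, 7.09 and 6.89, a mean of 6.90 ± 0.178. This CV of 2.58% is below the counting error of 11.1 to 12.8% per library, so the closeness of the 3 values is no measure of stability. PHLDA2 (ENSG00000181649.8, chr11:2928273-2929455, minus strand), a pleckstrin homology domain protein that restrains placental growth, had 6, 5 and 9 counts and 0.561, 0.438 and 1.02 CPM. The log2 ratio of CDKN1C to PHLDA2 per kb was 2.21, 2.64 and 1.39, a mean of 2.08 ± 0.64. Of their neighbours, the potassium channel gene KCNQ1 had 9.62 ± 1.21 CPM, the transporter gene SLC22A18 7.69 ± 1.60 CPM and the paternally expressed antisense RNA KCNQ1OT1 3.81 ± 0.648 CPM. Per kb these were 2.16 for KCNQ1, 1.45 for SLC22A18 and 0.0415 for KCNQ1OT1, whose exon is 91667 bases long. KCNQ1OT1 lies within KCNQ1 on the other strand, so their reads are not surely separated.

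PEG10 and PEG3 are paternally expressed genes of other chromosomes. PEG10 (ENSG00000242265.6, chr7:94656325-94669695, plus strand) derives from a retrotransposon and encodes a gag-like protein. It had 5953, 5928 and 5044 counts and 557, 519 and 570 CPM, a mean of 548 ± 26.4, with replicate 2 lowest. Its CV was 4.82%, beside a median of 4.94% over the 270 detected genes within 1.5-fold of its mean CPM, and 1.62% without replicate 2. SGCE, which encodes epsilon-sarcoglycan and starts head to head with PEG10 on the opposite strand, had 773, 891 and 770 counts and 79.1 ± 7.40 CPM. PEG10 exceeded SGCE by 4.59, 4.38 and 4.35 on the log2 scale per kb, a mean of 4.44 ± 0.13. With the longest transcript in place of all exons the mean was 2.72, since GENCODE 29 gives SGCE many exon bases outside that transcript. They share 3.27% of the exon bases of PEG10. PPP1R9A, further along the cluster, had 53.2 ± 2.36 CPM.

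PEG3 (ENSG00000198300.14, chr19:56810077-56840728, minus strand), a zinc finger protein gene, had 511, 581 and 379 counts. Its CPM were 47.8, 50.8 and 42.8, a mean of 47.1 ± 4.06, with replicate 3 lowest. ZIM2 shares 12.9% of the exon bases of PEG3 on the same strand and had 2, 4 and 3 counts, so the PEG3 row may lack shared reads. MIMT1 and USP29 of the same cluster had at most 8 counts in a library.

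At 15q11 neither member was detected. Of the other paternally expressed genes of the cluster, SNHG14, SNRPN and MKRN3 were detected, and SNURF and NPAP1 were not. NDN (ENSG00000182636.8, chr15:23685400-23687330, minus strand) encodes necdin, a MAGE protein of postmitotic neurons that binds E2F1. It had 11, 19 and 9 counts, or 1.03, 1.66 and 1.02 CPM. MAGEL2 (ENSG00000254585.5, chr15:23643549-23647867, minus strand), a MAGE protein that acts with TRIM27 and USP7 on endosomal sorting, had 0, 0 and 1 counts. Over the 3 libraries NDN had 39 counts and MAGEL2 1, a ratio per kb of 87.2 with a 95% exact interval of 14.8 to 3533 for counting error alone. Both genes have a single exon that overlaps no other gene in GENCODE 29.

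SNHG14, the long non-coding host of the snoRNAs of this cluster, had 131, 129 and 126 CPM, a mean of 129 ± 2.38. SNRPN had 17.9 ± 2.05 CPM and MKRN3, which encodes a ring finger protein and lies next to MAGEL2 and NDN, had 8.26 ± 0.0452 CPM from 88, 95 and 73 counts. NPAP1 had 0 counts in every library. The order of SNHG14 and SNRPN was reversed per kb, at 2.98 and 5.24 CPM per kb. Per kb, MKRN3 at 1.44 CPM per kb lay above NDN at 0.640 and MAGEL2 at 0.00872, and the 3 values of MKRN3 did not overlap those of either gene. UBE3A, read from the maternal copy in neurons, had 111 ± 9.66 CPM. SNRPN overlaps SNURF, and SNHG14 runs opposite to UBE3A, so these rows may share or lose reads.

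Replicate 3 differed from the others for some of the members. The log2 ratio of DLK1 in replicate 3 to the mean of replicates 1 and 2 was -0.47. Its CV of 17.7% was 0.156% without replicate 3. Of 439 detected genes within 1.5-fold of its mean CPM, DLK1 included, none had a lower value in replicate 3 against the others, and 5 had a higher CV. Replicate 3 also departs from the others with the GC content of transcripts, and 55.6% of the longest DLK1 transcript is G or C. After the GC trend was removed, the DLK1 difference was -0.33, 1 of the 439 genes was lower, and the CV was 12.7%. Replicate 3 also had the highest mitochondrial share, 6.25% against 4.11% and 3.83%. With mitochondrial genes left out of the scaling, the CV of DLK1 was 17.68%, against 17.70% with them. Beyond this, the part of that share in the DLK1 value was not tested.

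The same log2 ratio was -0.30 for RTL1, beside DLK1, and -0.16 with the GC trend removed. For PEG3 it was -0.20 and -0.27, for IGF2 -0.24 and -0.04, for CDKN1C -0.0046 and 0.21, and for PEG10 0.083 and 0.033. The 5 detected members thus did not move together, and 4 of 5 were lower in replicate 3 before and 3 of 5 after the trend was removed. Of 24 other imprinted genes that were detected, 13 were lower before and 18 after. Over all detected genes the median log2 ratio was -0.011 before and 0.0026 after. For IGF2 the library that stood apart was replicate 1, and its CV of 25.2% was 6.21% without that library. Of 1714 genes within 1.5-fold of its mean CPM, 78 had a higher CV than IGF2, and the median CV was 11.2%. These are differences among libraries of 1 labelled group, with no test.

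**Figure D3:**
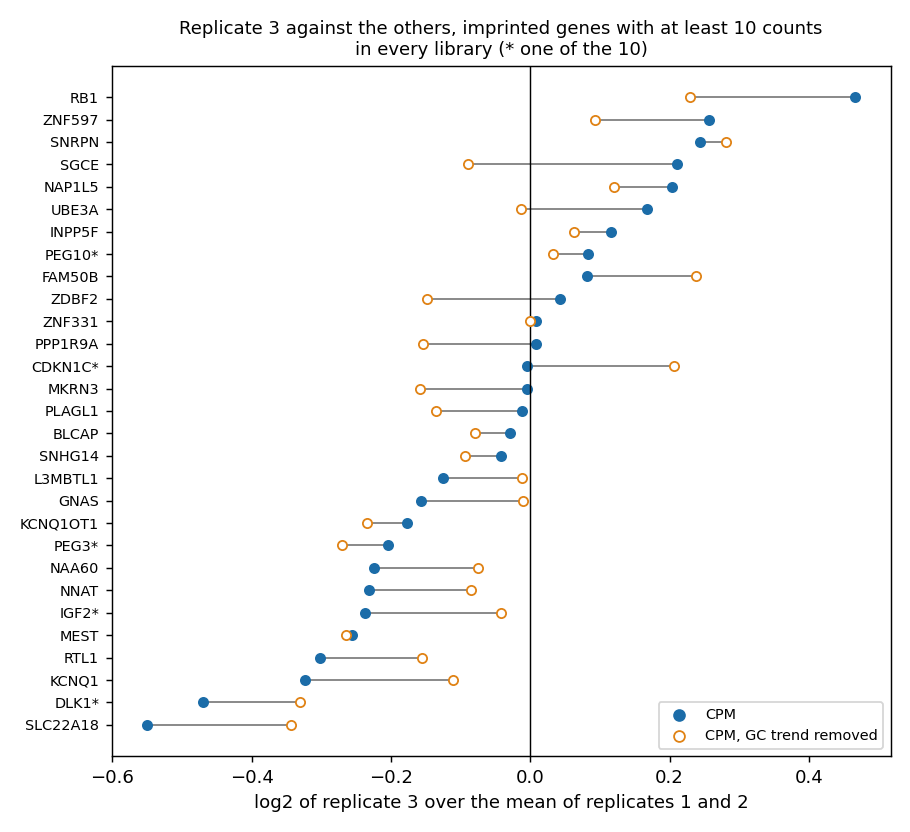
The x axis is the log2 ratio of replicate 3 to the mean of replicates 1 and 2, and each line is an imprinted gene with at least 10 counts in every library. Filled points are CPM and open points CPM with the GC trend removed. DLK1 lies at -0.47 and -0.33, and PEG10 within 0.1 of 0 on both.

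Genes that act with the 10 genes, or belong to their families, were taken from lists and described by how many were detected. Of 12 genes that keep or read imprints, 9 were detected, with a median over the list of 99.1 ± 3.84 CPM. TRIM28, the corepressor that holds methylation at imprints, had 697 ± 64.6 CPM, the maintenance methyltransferase gene DNMT1 389 ± 35.1 CPM and the de novo methyltransferase gene DNMT3A 225 ± 19.9 CPM. ZNF445, a zinc finger protein that binds methylated imprints, had 115 ± 10.2 CPM. The other such factor, ZFP57, had 0 counts in every library, as did the germ line genes DNMT3L and CTCFL. CTCF, the insulator protein that binds between IGF2 and H19, had 140 ± 5.36 CPM.

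Of 17 genes for receptors, carriers and RNA binders of IGF2, 12 were detected. Per kb, 10 of the 17 lay above IGF2 as counted here and 7 below it. IGF2R, the clearance receptor, had 462 ± 20.1 CPM, the binding protein gene IGFBP2 349 ± 33.4 CPM and the signalling receptor gene IGF1R 245 ± 18.2 CPM. Per kb these were 25.9, 73.3 and 17.6 CPM per kb, against 1.39 for IGF2. IGF1, the related ligand, had 0 counts in every library, and so had IRS4 and IGFBP1. Of the RNA-binding proteins named for IGF2 mRNA, IGF2BP3 had 75.4 ± 2.45 CPM, while IGF2BP1 and IGF2BP2 had at most 8 counts in a library.

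DLK1 was the most abundant gene per kb among the Notch ligands and relatives measured here. Of 16 Notch genes 12 were detected. The receptor gene NOTCH2 had 172 ± 9.80 CPM, the coactivator gene MAML1 149 ± 8.30 CPM and the receptor gene NOTCH3 87.2 ± 10.4 CPM. Per kb the other ligands and relatives were lower than DLK1 at 73.3 CPM per kb, with DLL3 at 3.93, the DLK1 paralog DLK2 at 3.002, JAG2 at 1.45 and JAG1 at 1.14, and DLL1 and DLL4 had at most 6 counts in a library. The target gene HES1 had 4.96 ± 0.299 CPM and HES5 had 0 counts in every library.

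The imprinted inhibitor CDKN1C was the lowest of its family. Per kb, CDKN1A, which encodes p21, was at 89.9 CPM per kb and CDKN1B, which encodes p27, at 26.7, against 2.79 for CDKN1C, without overlap between the genes. All 7 genes of the list of these inhibitors and their targets were detected, and among them CCND1, which encodes cyclin D1, had 932 ± 34.7 CPM, CDKN1A 274 ± 33.3 CPM and CDK4 158 ± 13.4 CPM. PHLDA2 was likewise the lowest of its family, at 0.703 CPM per kb against 7.54 for PHLDA1 and 11.9 for PHLDA3. The 6 other type II MAGE genes of the list, which need not be the whole family, were all detected. They ranged from 3.32 to 93.6 CPM per kb, and each lay above NDN and MAGEL2. MAGED1 had 504 ± 27.1 CPM (83.8 per kb), MAGED2 275 ± 10.7 CPM (93.6 per kb) and the MAGEL2 partner gene USP7 176 ± 3.81 CPM (22.1 per kb). Of 9 retrotransposon-derived gag genes other than PEG10 and RTL1, 6 were detected. RTL6 had 138 ± 3.52 CPM, RTL8C 85.3 ± 7.06 CPM and RTL5 69.1 ± 0.872 CPM, and RTL3 and RTL4 had 0 counts in every library. RTL8A, RTL8B and RTL8C are close copies, and their split of reads is uncertain.

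**Figure D4:**
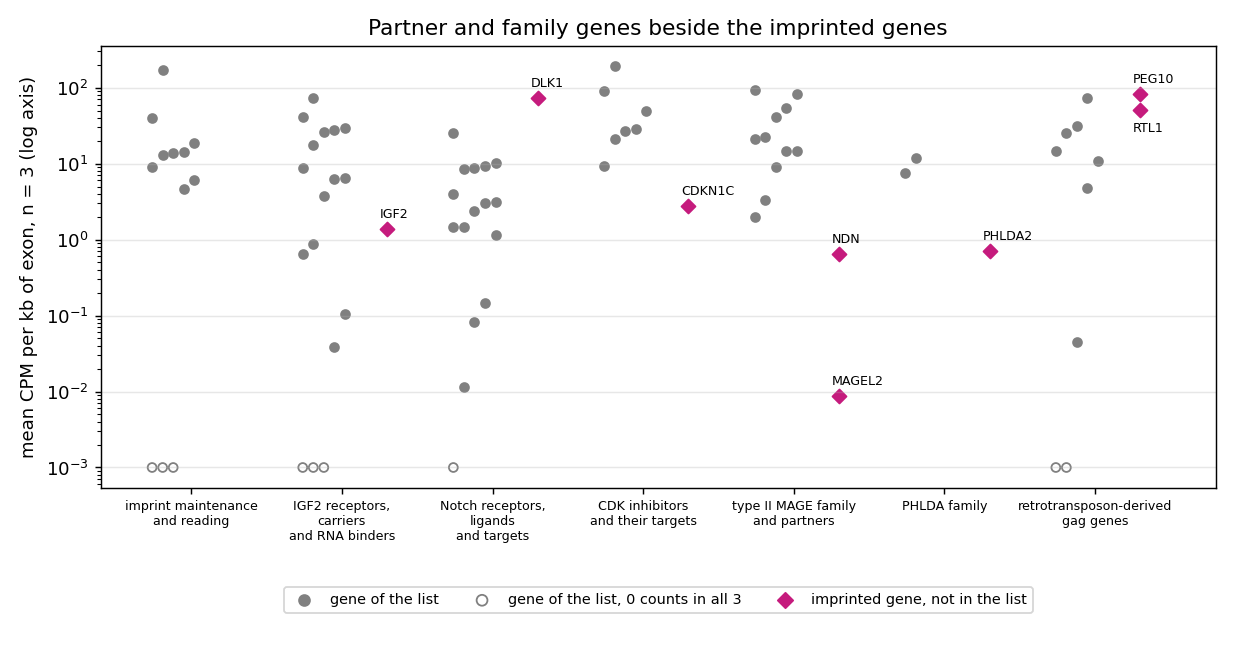
The y axis is the mean CPM per kb of exon over 3 libraries on a log scale, and each column is a list of partner or family genes. Grey points are genes of the list, open points genes with 0 counts in all 3 libraries, and magenta diamonds the imprinted genes. CDKN1C, NDN, MAGEL2 and PHLDA2 lie below every gene of their lists, IGF2 lies within its list, and DLK1 and PEG10 lie above theirs.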

How the data were processed

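Messenger RNA libraries were made by the submitters with a stranded Illumina kit from total RNA, per the labels' protocols. Per the submitters' processing notes, fastp 0.21.1, STAR 2.7.7a and featureCounts were used with GRCh38. The annotation release, strand setting and treatment of shared reads are not given in the sources used here. The deposited values are raw counts per Ensembl gene, without normalization. Columns were matched by number to control replicates 1, 2 and 3 (headings 4, 5 and 6), and 3 other count columns matched no sample and were not used. 1 gene without values and 2 lines naming no gene were left out. Symbols were looked up by Ensembl identifier and matched 60480 of 60709 genes.

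Counts were scaled to CPM with TMM factors from edgeR 4.0.16 (R 4.3.3). Exon lengths, overlaps and GC content (longest transcript) came from GENCODE 29, whose entries may differ from the authors' annotation. The GC trend was each library's median log2 deviation in 50 bins of 10290 nuclear genes (mean count 100 or more, none below 10). In simulated counts 1 library was given a GC slope of -2 (log2 over the whole GC range). A straight line through 2599 genes of high count gave -2.00 before the trend was removed and -0.038 after. Python 3.11.15, numpy 2.4.6, pandas 2.3.3, scipy 1.17.1 and matplotlib 3.10.9 were used. With 1 group there was no test between conditions. The members and lists were chosen with earlier results of these data known. The rule named the 10 genes, and of each other list the 3 highest by mean CPM (not printed in full for markers), those with 0 counts in every library and genes sharing reads with a member. Other genes named were chosen after their values were seen, among them neighbours in a cluster and family members.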

Additional observations from a re-analysis of the deposited data

How the results depend on the processing

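Of 146 values recomputed with other scalings, minimums, lengths and sets of libraries, 133 moved by less than a set limit. The limit was the SD between replicates, the interval of a pooled ratio or, for counts, 1.5 times. For a CV it was the SD of the 3 CVs with 1 library left out, which are themselves among the values judged. Scaling factors over all genes lay between 0.990 and 1.006, so other scalings of all genes could move little. Leaving out mitochondrial genes moved PEG10 to 576 CPM, CDKN1C to 7.25 CPM and the median of the other imprinted genes from 9.15 to 9.60 CPM, which follows from the smaller library total. Restricted to detected genes, that median was 56.2 CPM. Of the 10 genes, 8 passed a minimum of 1 count and 8 a minimum of 5, and 3 passed 100, against 5 at 10 counts. The log2 ratio of PEG10 to SGCE was 2.72 with the longest transcript, against 4.44. The other 5 that moved were CVs of single genes. Removing the GC trend raised that of CDKN1C from 2.58% to 9.65%. Without 1 library each, those of DLK1, IGF2, PEG3 and PEG10 fell to between 0.156% and 6.21%. A mean of 3 libraries cannot move by 1 SD when 1 is left out, so those fits say nothing about stability of the levels. The ratio of DLK1 to MEG3 could not be formed without replicate 2, nor that of NDN to MAGEL2 without replicate 3, since the second gene then had 0 counts. No paired analysis was possible because only 1 group has matched columns, and the planned comparison of peptide with control was not run. Depth limits MEG3, MAGEL2, H19, NDN and PHLDA2, which rest on at most 19 counts per library.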

Other observations

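Outside the clusters of the 10 genes, 14 of 17 genes listed as imprinted were detected, and over all 38 other listed genes the count was 24. Of all 60709 genes, many of them non-coding, 22.9% were detected. Whether the RNA of a listed gene came from 1 parental copy is not shown by its count. The highest of the 38 by CPM was GNAS, which encodes the stimulatory G protein alpha subunit. It had 3398, 3195 and 2956 CPM, a mean of 3183 ± 221 (SD, n = 3). Per kb it was also the highest of these genes, at 239 CPM per kb. NNAT, which encodes the small membrane protein neuronatin, had 88.2 ± 8.66 CPM, or 66.2 CPM per kb, against 73.3 for DLK1 and 50.6 for RTL1. The NNAT values of 89.3, 96.3 and 79.0 CPM were lowest in replicate 3. INPP5F, a phosphoinositide phosphatase gene, had 127 ± 7.88 CPM, or 16.6 per kb. MEST, a hydrolase gene that marks early mesoderm, had 19, 29 and 16 counts, and the signalling adaptor gene GRB10 had 1, 5 and 3. RB1, the retinoblastoma gene, had 62.7, 74.6 and 94.9 CPM and was, of the detected imprinted genes, the one most raised in replicate 3, by 0.47 on the log2 scale before and 0.23 after the GC trend was removed. After removal SNRPN, at 0.28, and FAM50B, at 0.24, stood above it.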
